A study of Mus musculus with 2 samples.

Results

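Mov10 was immunoprecipitated from neonatal mouse brain, and peaks of RNA were called with input as the control. Of the 2296 peaks, 200 had their midpoint in the 3' untranslated region (3' UTR) of a nuclear-encoded mRNA. A peak was counted here if it lay on chromosomes 1 to 19 or X, if its midpoint fell in an exon 3' of the stop codon of a protein-coding GENCODE transcript (release M21, mm10), and if no coding sequence (CDS) covered that base on the same strand. The peaks are listed on the strand opposite to the mRNA, so the mRNA strand was taken as the reverse. The rule used position only, and no read count or p-value entered it. The 200 peaks belonged to 175 genes, of which 153 had 1 such peak, 19 had 2 and 3 had 3 or more. On the same chromosomes there were 324 peaks with their midpoint in CDS, 58 in 5' UTRs, 107 in other exons, 70 in introns and 43 in no annotated transcript.

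Both libraries came from 1 pool of brains of 28 wild-type C57bl/6 pups at postnatal day 2. In the Mov10 IP library the RNA was pulled down with an antibody to Mov10, and the input library held total RNA of the same material. There was 1 library of each and no replicate. The interval of a ratio below covers the counting of reads alone, which are not independent molecules. Intervals of medians and of shares are taken over peaks or genes, which all share these libraries. No interval says anything of spread between mice. The brains for these libraries were not cross-linked with UV light, unlike those of a separate confirmatory IP. A control IP with an unrelated antibody preceded that with Mov10 antibody, and its library was not used here.

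Mov10 is an RNA helicase that is found with Argonaute proteins and with the fragile X protein FMRP, and it acts on mRNAs in the cytoplasm. The 3' UTR of an mRNA is not translated, so proteins bound there are not displaced by ribosomes. It carries most sites for microRNAs (miRNAs), sites for RNA-binding proteins, and the signals that place the poly(A) tail. In neurons, 3' UTRs are also known to direct mRNAs to axons and dendrites.

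Because miRNAs pair with 3' UTRs mainly through their seed, bases 2 to 8, the exonic part of each peak was searched for the complement of the seeds of miRNAs known from brain. The mature sequences are RefSeq's (GRCm38.p6), with the seed in capitals, and no pair of them shared a seed. Also on the list was miR-124-3p, which was not analysed here.
let-7a-5p: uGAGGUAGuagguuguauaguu
miR-9-5p: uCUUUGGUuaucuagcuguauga
miR-125b-5p: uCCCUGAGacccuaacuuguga
miR-128-3p: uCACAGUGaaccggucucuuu
miR-26a-5p: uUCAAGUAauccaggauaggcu
miR-29a-3p: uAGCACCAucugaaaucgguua
miR-30a-5p: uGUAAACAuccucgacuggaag
miR-138-5p: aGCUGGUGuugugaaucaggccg
miR-218-5p: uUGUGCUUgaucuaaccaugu
miR-181a-5p: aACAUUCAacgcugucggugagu
miR-137-3p: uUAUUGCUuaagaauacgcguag

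Seed matches within the peaks are shown for let-7a-5p, a miRNA that rises as neurons mature, and for miR-138-5p, which had the most matches of the 11. Each is given on the mRNA strand (mm10, T for U) with the match in capitals. The let-7a-5p sites are in Dcakd (chr11:102994294-102994323, minus strand), Cacng4 (chr11:107732719-107732748, minus strand) and Col1a2 (chr6:4541066-4541095, plus strand). The miR-138-5p sites are in Clvs1 (chr4:9449978-9450007, plus strand) and in a 3' UTR shared by Igf2 and Gm49394 (chr7:142652089-142652118, minus strand).
Dcakd: cccaagctctcCTACCTCtgtgccttcccc
Cacng4: tccgatgactcCTACCTCttgtccggttcc
Col1a2: aaaggtttgaaCTACCTCaagacactttgc
Clvs1: cctgacctcatCACCAGCatctaagtagtc
Igf2 and Gm49394: cgagccatcaaCACCAGCtagagccatcaa

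Sites for RNA-binding proteins and 3' end signals are shown for the peaks with the most IP reads that held them. The Pumilio element TGTANATA is bound by Pumilio proteins, which repress translation. It occurred in Ptma (chr1:86530291-86530320, plus strand), Rab11b (chr17:33746751-33746780, minus strand) and Rrp1 (chr10:78400565-78400594, minus strand). AATAAA is the hexamer read by the 3' end cleavage complex, and in Rrp1 (chr10:78400392-78400421, minus strand) it ended 18 bases before the annotated transcript end. In Pa2g4 (chr10:128558641-128558670, minus strand) it ended 887 bases before that end. Patterns of 4 runs of at least 3 G with 1 to 7 bases of any kind between runs, which can fold into G-quadruplexes, were found in H2afy2 (chr10:61739188-61739217, minus strand) and Pdap1 (chr5:145130005-145130034, minus strand). In Pdap1 the longest stretch of G counts as a pair of runs with a G between them.
Ptma: ttttatattttTGTACATAttgttaggggt
Rab11b: tcttcgtgtttTGTATATAcaactgctctt
Rrp1, Pumilio element: aacatttcactTGTACATAtgctatggctg
Rrp1, poly(A) signal: tggctgcccacaAATAAActgcgggtcctt
Pa2g4: aagaaattgaatAATAAAatcaggagtcaa
H2afy2: aaGGGTGACGGGGCATGGGAGCGGAGGGtg
Pdap1: ggaGGGGGGGTGCCTGGGAAGTGGGGtgag

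The 3' UTR peaks held between 425 and 26064 IP reads, with a median of 1908, against 0 to 1284 input reads, with a median of 104. Together they held 606295 IP reads of the 2341964 in the list. Each count was divided by the aligned reads of its library, and the IP over input ratio was formed from the quotients. The median ratio, with a pseudocount of 0.5 on both counts, was 15.6 (lower and upper quartile 10 and 24.8, 95% interval of the median from order statistics 14.1 to 17.9). With totals of uniquely aligned reads as divisors the median was 9.57, since these were a smaller share of the input library than of the IP library.

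**Figure D1:**
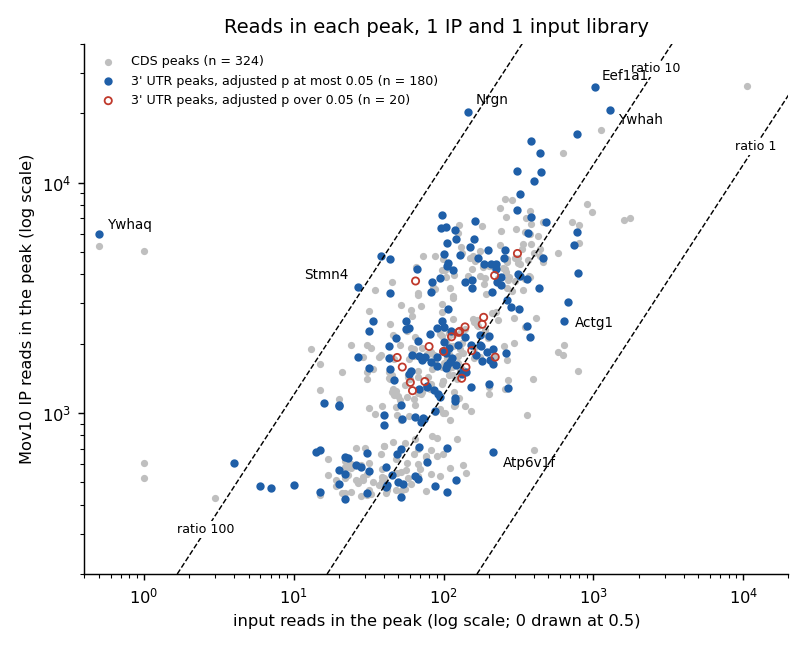
IP reads (vertical, log scale) against input reads (horizontal, log scale, 0 drawn at 0.5) of the 200 3' UTR peaks and the 324 CDS peaks, with dashed lines at ratios of 1, 10 and 100 after division by aligned reads. All 3' UTR peaks lie above the line of ratio 1, and the 20 open circles with an adjusted p over 0.05 lie within the cloud of the other 180.

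Of the 200 peaks, 180 had an adjusted p of at most 0.05 from the authors' peak caller, which is 90% (Clopper-Pearson 95% interval 85.0 to 93.8). The list as used here holds fewer peaks than the study states, and shares of the list refer to it as held. The share was 43.4% of all peaks in the list, most of which lie on contigs outside the assembled chromosomes, and 90.8% of the 802 peaks on chromosomes 1 to 19 and X. A ratio of 10 or more was reached by 151 peaks, or 75.5% (68.9 to 81.3), against 29.1% of the list and 69.2% of the 802. With uniquely aligned reads that share was 48.0%. The interval of the ratio lay above 1 in 200 of 200 peaks, against 45.6% of the list and 99.4% of the 802. All these shares stand close to those of all chromosome peaks. Every peak in the list had been picked by the caller from these same libraries. The list is not confined to peaks above input, and on the chromosomes it holds a peak of 575 IP and 50303 input reads, a ratio of 0.00954.

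The 20 peaks over the threshold all had an adjusted p of 1, and 9 of them lay on chromosome 8, 6 on chromosome 16 and 5 on chromosome 11. They were all the 3' UTR peaks listed on the plus strand of chromosomes 8 and 16 and on the minus strand of chromosome 11. Every 3' UTR peak on the other strand of these chromosomes passed. Whether a 3' UTR peak passed thus followed its chromosome and strand. Peaks had been called separately for each strand, and the reason for these values was not tested. They held 1251 to 4929 IP reads, and their ratios ran from 6.60 to 48.0 with a median of 14.9, within the range of the other 180. Among them were Dlg4, which encodes the postsynaptic scaffold PSD-95, Mapt, which encodes tau, and App, which encodes the amyloid precursor protein. The highest ratio of the 20 was at Ccdc124 (3744 IP reads and 65 input reads, a ratio of 48.0, interval 37.6 to 62.3). The caller's empirical false discovery rate (eFDR) was at most 0.05 in 74 peaks (37.0%), against 37.7% of the 802 peaks on chromosomes 1 to 19 and X. On some chromosomes all 3' UTR peaks had the same eFDR, such as 0.0682 on chromosome 4 and 0.667 on chromosome 7. The depth at which a 3' UTR peak was listed also differed by chromosome and strand. On chromosome 6 there were 34 peaks with as few as 425 IP reads, all listed on the minus strand and thus in mRNAs of the plus strand. On chromosome 16 there were 29, with as few as 431 IP reads on the minus strand and no fewer than 1251 on the plus strand. On chromosome 9 there were 2, with no fewer than 20339 IP reads, and chromosomes 3 and 13 had none. A gene without a peak is therefore not shown to be unbound.

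CDS peaks had a median ratio of 14.2 (quartiles 9.67 and 22.6), and the medians of both classes differed by 0.13 on the log2 scale, 3' UTR over CDS. An interval combined from both medians, -0.07 to 0.33, treats peaks as independent, which they are not, so it is no test between the classes. In 5' UTRs the median ratio was 8.42 (quartiles 4.89 and 14.3), and 41.4% of peaks (28.6 to 55.1) reached a ratio of 10. In introns the median was 17.4, in other exons 15.1 and in no transcript 12.9. No test was made between places, because all peaks share 1 pair of libraries.

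**Figure D2:**
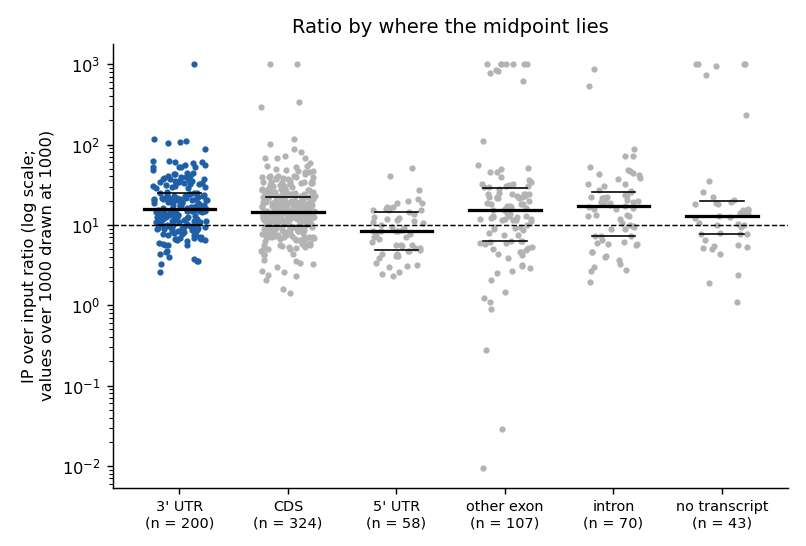
IP over input ratio of each peak on chromosomes 1 to 19 and X (vertical, log scale, pseudocount 0.5, values over 1000 drawn at 1000) by the place of its midpoint, with the median as a thick bar, the quartiles as thin bars and a dashed line at 10. The medians of 3' UTR and CDS peaks, 15.6 and 14.2, lie close together and that of 5' UTR peaks, 8.42, lies lower.

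With a minimum of 100 reads in the IP and 10 in the input, and adjusted p up to 0.05, the highest ratios were found at mRNAs of a synaptic protein, a microtubule regulator and a growth factor. Nrgn encodes neurogranin, a postsynaptic protein that binds calmodulin, and its mRNA is known to travel into dendrites. Its peak (chr9:37544981-37545200) held 20339 IP reads and 146 input reads, a ratio of 116 (interval 98.7 to 138). Stmn4 encodes a stathmin that destabilizes microtubules, and its peak (chr14:66361501-66361725) held 3536 IP reads and 27 input reads, a ratio of 109 (74.9 to 166). These intervals overlap, so the order of the 2 genes is not set by the counts. Only 61 bases separated the midpoint of the Stmn4 peak from the transcript end, and the Nrgn peak lay 265 bases from the stop codon in a 3' UTR of 863 bases.

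Igf2, an imprinted growth factor of the meninges, choroid plexus and vessels, had 3 peaks in its 3' UTR. The longest 3' UTR annotated there is that of Gm49394, which shares these exons on the same strand, so the reads cannot be assigned to either. From 5' to 3' the peaks held 4810 IP and 38 input reads, then 4663 and 44, then 4237 and 66. The ratios were 106 (76.8 to 149), 88.3 (65.7 to 122) and 53.5 (42 to 69.3). The intervals of the first and the third did not overlap.

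Further high ratios were found at Tpm4, a tropomyosin of actin filaments (3333 IP and 44 input reads, ratio 63.1, interval 46.9 to 87.1), and at Pa2g4, a growth regulator that binds ErbB3 (7252 and 98 reads, 61.7, 50.5 to 76.1). At Fstl1, a secreted glycoprotein, a peak of 1050 bases held 2502 IP and 34 input reads, a ratio of 61.3 (43.8 to 88.8). Tenm2, a teneurin that links cells across synapses, had 2278 and 32 reads, a ratio of 59.3 (41.9 to 87.0). Cbx3, which encodes the heterochromatin protein HP1 gamma, had 1109 and 16 reads, a ratio of 57.8 (35.4 to 101). Pdap1 (55.4), the matrix protein gene Sparc (54.0), Atat1 (52.0), which encodes the acetyltransferase of alpha-tubulin, Naa60 (45.1) and Far2 (44.9) completed the 15 highest, of which Igf2 took 3. The intervals of Tpm4 and of all that followed it, down to Far2, overlapped one another.

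Ywhaq, which encodes the 14-3-3 protein theta, stood apart because its first 3' UTR peak (chr12:21391001-21391200) held 5972 IP reads and no input read. With a floor of 3 reads in place of 0, its ratio was 1659 (interval 568 to 8049). The second peak of the gene, centred 656 bases from the stop codon against 256 for the first, held 5128 IP reads and 197 input reads, a ratio of 21.7 (18.8 to 25.1). Its CDS peak also had no input read beside 5336 IP reads. Among the 802 chromosome peaks, 14 had no input read, and these 2 of Ywhaq were the only ones of the 14 in a 3' UTR or CDS.

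Among the peaks with the most IP reads, levels and ratios did not go together. Read counts per 1000 bases allow levels to be compared between peaks. Eef1a1, the elongation factor that brings tRNAs to the ribosome, had 118473 IP reads per 1000 bases and Nrgn had 92450. Rab11b, a GTPase of recycling endosomes, had 36888, Myl12b, a myosin light chain, 34629, and Crmp1, a mediator of semaphorin signals, 32932. The input levels did not keep this order, with 4632 input reads per 1000 bases at Eef1a1, 664 at Nrgn, 939 at Rab11b, 1873 at Myl12b and 2361 at Crmp1. The ratio at Eef1a1 was therefore 21.3 (20 to 22.7), well below that of Nrgn, and at Rab11b it was 32.7 (29.6 to 36.3). At Ywhah, which encodes 14-3-3 eta, 20678 IP and 1284 input reads gave 13.4 (12.7 to 14.2). Ptma, which encodes the nuclear protein prothymosin alpha, had 16286 and 773 reads and a ratio of 17.6 (16.3 to 18.9). Slc25a23, a mitochondrial carrier, had 2 peaks with 13407 and 11207 IP reads at ratios of 25.6 (23.2 to 28.2) and 30.2 (27.0 to 34.0).

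The lowest ratios, under the same conditions on reads and adjusted p, were all above 1. Atp6v1f, a subunit of the vacuolar proton pump, had 676 IP and 215 input reads, a ratio of 2.62 (2.24 to 3.07). Actg1, cytoplasmic gamma-actin, had 2498 and 632 reads, a ratio of 3.29 (3.0 to 3.60), and its second peak, 10 bases from the transcript end, had 2138 and 377 reads, a ratio of 4.73 (4.24 to 5.29). Reep1 (3.53), Lrrc58 (3.61), Dynll1 (3.74), a dynein light chain, Phb2 (3.96), a prohibitin of mitochondria, Eif5a (4.29), a translation factor, and Cxadr (4.64), a cell adhesion receptor, followed. The Lrrc58 peak matched Actb over 210 bases at 97.1% identity, so its reads may come from either.

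Reads shared with near-identical copies were a concern at 12 of the 200 peaks (6.00%), against 47 of the 324 CDS peaks, counting any match of at least 100 bases at 95% identity in a transcript of another gene. These lay in Eef1a1 (16 other genes), Ywhah, Ptma, Rtl8a (matching Rtl8b over 615 bases at 99.5%), Rpl5, Fam177a, Cacng4, Rtraf, Tmem234 (73 other genes), Nutf2-ps1, Tmem254a and Lrrc58. Their values are uncertain. The median ratio was 16.2 with copies and 15.6 without. At 8 peaks the midpoint also lay in an exon of another gene on the same strand, namely the 3 of Igf2 and those of Vps25, Lrrc58, Lsm3, Arpc4 and Prrt2. At 6 it lay in an exon of a gene on the opposite strand, among them H2afy2, Hnrnpab, Selenop, Clvs1 and Gsk3a.

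Peaks lay nearer to the stop codon than to the transcript end. The median midpoint was at 36.9% of the 3' UTR (interval 31.9 to 47.5), 377 spliced bases past the stop codon and 625 before the transcript end. With each 3' UTR cut into 5 equal parts, the parts held, from the stop codon onward, 59, 44, 34, 40 and 23 peaks. The median ratio in these parts was 17.2, 15.6, 16.7, 14.6 and 13.1, and the quartiles of all of them overlapped (first part 10.2 to 30.2, last part 10.3 to 20.9). The median distance to the end depends on the transcript taken, and with the shortest 3' UTR at each midpoint in place of the longest it was 468 bases. The 3' UTRs with a peak had a median length of 1285 bases over peaks and 1177 over the 175 genes, against 971 for the longest 3' UTR of every protein-coding gene.

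**Figure D3:**
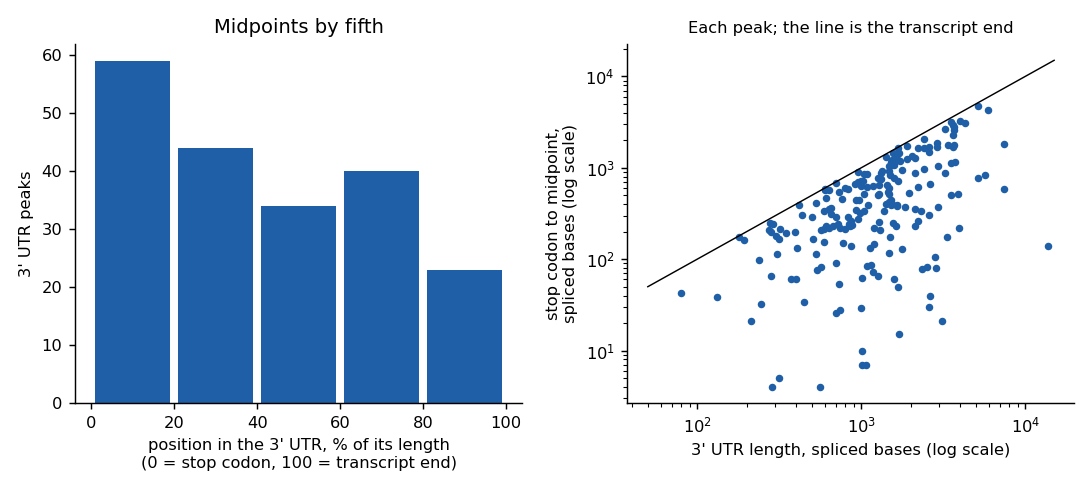
Left, the number of 3' UTR peaks in 5 equal parts of the 3' UTR from the stop codon. Right, spliced bases from the stop codon to the midpoint against the length of the 3' UTR (both log scales, 1 point per peak), where points near the line lie at the transcript end. The first part holds 59 peaks and the last 23.

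Of the 200 peaks, 58 had a midpoint within 200 bases of the stop codon and 32 within 200 bases of the end. Coding bases were part of 53 peaks, and 137 lay wholly within 3' UTR exons. The 5 nearest to the stop codon, at 4 to 7 bases, were in Msra, a repair enzyme for oxidized methionine, Eef1a1, D8Ertd738e, Vsnl1, a neuronal calcium sensor, and Rpl5, a ribosomal protein. Their ratios were 17.4, 21.3, 20.3, 6.03 and 29.8, in that order, and D8Ertd738e was over the adjusted p threshold. The 5 nearest to the transcript end were in Npy, the neuropeptide Y gene, Actg1, Dnajc8, Vegfb and Pcp4, with ratios of 40.4, 4.73, 40.8, 20.9 and 38.4. Peaks that shared coding bases had a median ratio of 17.2, and those that did not had one of 15.6.

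In sets of 50 peaks ordered by the length of the 3' UTR, the median ratio was 17.4, 15.5, 18.8 and 11, the last over 3' UTRs of 2124 to 13777 bases. Ordered by input reads, from few to many, it was 24.5, 17.8, 12.8 and 11.1. Input reads are the denominator of the ratio, so this order is in part built in. By IP reads the medians were 12.2, 13.3, 15.3 and 22.3 from few to many, and IP reads are likewise the numerator.

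In 22 genes, 2 or more peaks lay in the same 3' UTR, and in 13 of them the intervals of the highest and the lowest ratio did not overlap. The higher ratio was 1.05 to 76.5 times the lower, with a median of 1.60. The top of this range rests on the floor set for the Ywhaq peak without input reads. Cxcl12, a chemokine that guides migrating neurons and is made by the meninges, had 3 peaks. From the stop codon they held 606 IP and 4 input reads, then 647 and 22, then 475 and 7. The ratios were 126 (49.1 to 465), 24.5 (16.1 to 39.4) and 56.6 (27.2 to 141), so that the first and the second differed beyond counting error. Sdc3, a heparan sulfate proteoglycan of axons, had 3 peaks at ratios of 9.0 (7.79 to 10.5), 9.29 (7.78 to 11.2) and 5.87 (5.15 to 6.71), the last one 341 bases from the transcript end. At Fstl1 the peak nearer to the stop codon had a ratio of 24.7 (18.4 to 33.7), below the 61.3 (43.8 to 88.8) of the distal one.

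Pairs of peaks at nearly the same ratio were found in Atp1b2, a subunit of the sodium pump of glia (20.4 and 21.5), Cacng4, an AMPA receptor partner (35.0 and 38.1), and Gnao1, the G protein alpha subunit Go (21 and 23.1). At Calm3, which encodes calmodulin, the peak near the stop codon reached 16.4 (14.4 to 18.9) and the distal one 8.50 (7.72 to 9.37). At Ina, which encodes the neurofilament partner internexin, the proximal peak reached 31.8 (26.6 to 38.2) and the distal one 16.6 (14.6 to 18.9). In Atp6v0e2, a subunit of the vacuolar proton pump, the order was turned, with 5.57 (4.80 to 6.49) proximal and 11.2 (8.45 to 15.2) distal.

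A peak in the 3' UTR and a peak in the CDS were found together in 51 genes, which allows both places to be compared on the same mRNA. Where a gene had several peaks in a place, their reads were summed. The ratio in the 3' UTR was higher in 14 genes and lower in 17, with a log-normal 95% interval of the ratio of ratios that excluded 1, and in 20 genes the interval included 1. Some 3' UTR peaks shared bases with the CDS, so the places are not fully apart. Among the higher genes these were Atp6v1f, Prrt1 and Ube2d1, and among the lower ones Fabp3, Ndufs8, Fezf2, Ywhah, Tax1bp1, Fam177a and Sparc. The median ratio of ratios was 0.952, or -0.07 on the log2 scale (interval -0.33 to 0.15, quartiles -0.50 and 0.49). It was -0.08 over the 34 genes with peaks at least 50% in their place and with no base in the other. The remaining 124 genes with a 3' UTR peak had no CDS peak, and 196 genes had a CDS peak only.

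**Figure D4:**
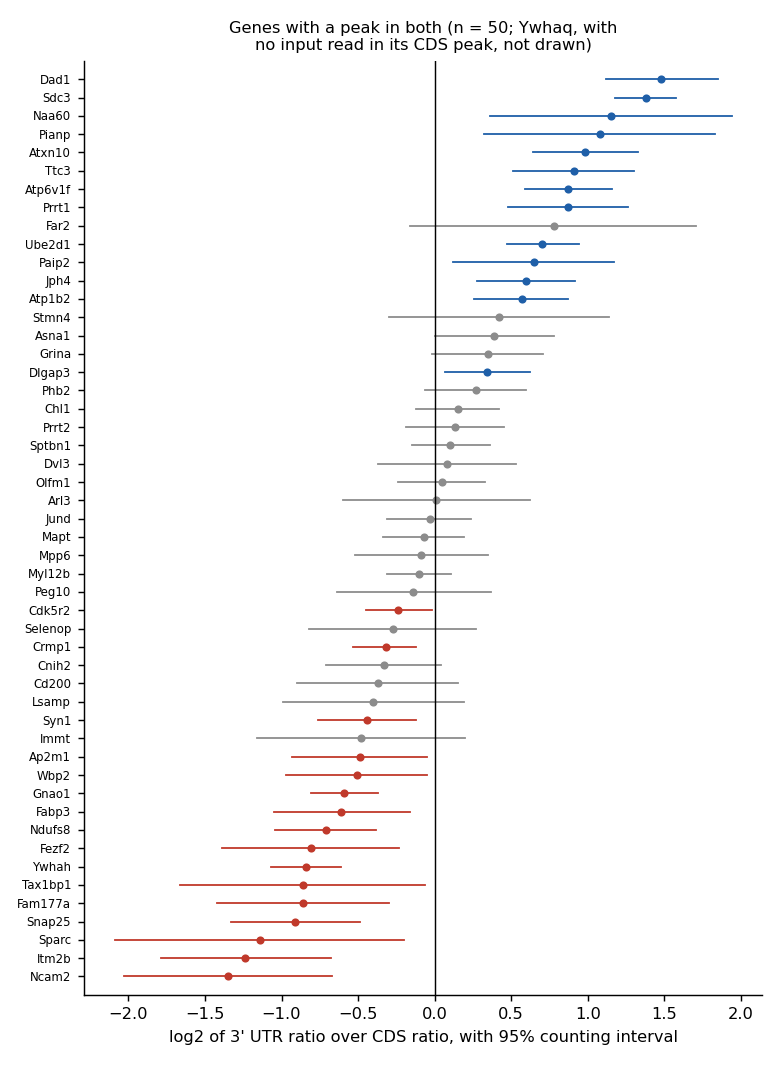
The log2 ratio of the 3' UTR ratio to the CDS ratio of the same gene, with 95% counting intervals, for genes with a peak in both places. Blue genes lie above 0 and red ones below, and grey intervals include 0. Asna1, counted among the 14 higher genes, is drawn grey because the lower end of its interval rounds to 0. Ywhaq, whose CDS peak had no input read, is not drawn. It is counted in the 17 lower genes, although its direction is not set.

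The 3' UTR exceeded the CDS most at Dad1, a subunit of oligosaccharyltransferase, with a ratio of 12.1 in the 3' UTR (1254 IP and 86 input reads) and 4.33 in the CDS (1393 and 268 reads). The ratio of ratios was 2.79 (2.17 to 3.60). Sdc3 followed with 7.69 and 2.96 (ratio of ratios 2.6, interval 2.26 to 2.99), then Naa60, an acetyltransferase of the Golgi (2.22, 1.29 to 3.83), Pianp (2.11, 1.25 to 3.55), Atxn10 (1.98, 1.55 to 2.52) and Ttc3, a ubiquitin ligase (1.87, 1.43 to 2.46). In the other direction, Ncam2, an adhesion molecule of axons, had 6.85 in the 3' UTR (431 and 52 reads) and 17.5 in the CDS (597 and 28 reads), a ratio of ratios of 0.392 (0.244 to 0.629). Itm2b, an inhibitor of amyloid processing, had 0.423 (0.288 to 0.622), Sparc 0.453 (0.235 to 0.871), Snap25, the SNARE protein of synaptic vesicle release, 0.533 (0.398 to 0.714), and Fam177a 0.551 (0.373 to 0.813). Ywhaq was counted as lower only through the 197 input reads of its second 3' UTR peak, since its first had no input read either, so its direction is not set. At Sparc and Fam177a the 3' UTR peak shared bases with the CDS, and Fam177a has copies.

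Genes were grouped by 14 lists of 723 genes, which were written with earlier results of these data in view and are no evidence of their own. Over all protein-coding genes with an annotated 3' UTR, 175 of 20885 (0.838%) had a 3' UTR peak. Of the genes of the lists 64 had one, and 111 genes with a peak were in no list. The groups differed in how many genes had a peak, from 0 to 8. Their median ratios lay within the quartiles of all 3' UTR peaks, 10 to 24.8, except for axon genes and small GTPases, below, and secreted genes, above.

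For the postsynapse and dendrites, 6 of 42 genes had a 3' UTR peak, of which 5 of 6 peaks passed the adjusted p and 4 reached a ratio of 10 (median 12). Beside Nrgn, Prrt1, a partner of AMPA receptors, had 6205 IP and 120 input reads, a ratio of 43.1 (36.0 to 52.1). Dlg4 had 4929 and 311 reads, a ratio of 13.2 (11.8 to 14.9), with an adjusted p of 1. Dlgap3, which binds PSD-95, had 8.61 (7.61 to 9.77), Cnih2 9.46 (7.92 to 11.4) and Ppp1r9a, an actin-binding protein of spines, 10.9 (8.60 to 14).

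For the presynapse, 6 of 40 genes had a peak, 7 of 7 peaks passed and 6 reached 10 (median 15.6). Prrt2, which acts in vesicle release, stood highest at 30.4 (25.3 to 36.9), with 4193 IP and 115 input reads. Snap25 followed at 29.2 (24.8 to 34.6) with 5260 and 150 reads, and these intervals overlapped. Rab3b reached 22.3 (18.8 to 26.6), Syt1, the calcium sensor of vesicle fusion, 15.6 (13.8 to 17.8), and Syn1, which tethers synaptic vesicles, 13.4 (11.8 to 15.3) and 11.2 (9.30 to 13.6) at its peaks. Rab3a, a GTPase of the same vesicles, was lower at 6.73 (6.09 to 7.46).

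For axon growth, adhesion and guidance, 8 of 48 genes had a peak, 8 of 9 peaks passed and 4 reached 10 (median 9.70). The most IP reads were at Cdk5r2, which encodes the Cdk5 activator p39 (11128 IP and 446 input reads, ratio 20.8, interval 18.9 to 22.9). Crmp1 had 6751 and 484 reads, a ratio of 11.6 (10.6 to 12.8). The kinase gene Gsk3a had 4450 and 185 reads at a ratio of 20.1 (17.3 to 23.4). Lower ratios were found at the adhesion molecules L1cam (9.71, 8.57 to 11.1) and Chl1 (9.18 and 5.59), and at Dpysl3 (5.56, 4.97 to 6.23), a collapsin response mediator like Crmp1.

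For the actin and microtubule cytoskeleton, 8 of 55 genes had a peak, 9 of 10 peaks passed and 6 reached 10 (median 10.7). The ratios ran from 3.29 at Actg1 to 109 at Stmn4. Between them lay Capzb, the actin capping protein (19.7, 15.6 to 25.3), Mapre2, which binds microtubule ends (10.4, 8.4 to 12.9), Mapt (11.2, 9.62 to 13.1, adjusted p of 1) and the spectrin Sptbn1 (9.06, 7.72 to 10.7).

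For secreted, matrix and neuropeptide genes, 6 of 50 genes had a peak, 8 of 9 peaks passed and 8 reached 10. The median ratio of this group, 53.0, was above the upper quartile of all 3' UTR peaks, and 3 of its 9 peaks were those of Igf2. Besides Igf2, Fstl1 and Sparc, Npy had 679 IP and 14 input reads, a ratio of 40.4 (23.9 to 74.3), Col1a2, a collagen chain, 1915 and 109 reads, a ratio of 14.6 (12.1 to 17.9), and Ncan, a chondroitin sulfate proteoglycan, 6.60 (5.74 to 7.63) with an adjusted p of 1.

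Signalling genes were represented by 6 of 58 G proteins, kinases and calmodulins, with 10 of 10 peaks passing and 6 reaching 10 (median 14.9). Within the 14-3-3 family, Ywhag had 8.86 (7.95 to 9.91) and 7.46 (6.64 to 8.41), below Ywhah and both Ywhaq peaks with no overlap of intervals. Gng2, a G protein gamma subunit, had 6094 and 776 reads, a ratio of 6.55 (6.07 to 7.06), over a peak of 1050 bases. Among small GTPases and membrane traffic, 6 of 56 genes had a peak, 6 of 6 peaks passed and 3 reached 10 (median 9.61). Arl8a, a GTPase of lysosome transport, had 4341 and 106 reads, a ratio of 34.1 (28.2 to 41.8), near that of Rab11b, and its paralog Arl8b had 541 and 45 reads, a ratio of 10 (7.39 to 13.9). The intervals of the paralogs did not overlap.

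RNA-binding and splicing proteins had a 3' UTR peak in 3 of 65 genes, namely Hnrnpab (18.9, 16.1 to 22.3), Celf4 (10.7 and 14.8) and Rbfox1 (7.56, 5.70 to 10.2). Translation and ribosome genes had one in 4 of 56, and these were Eef1a1, Rpl5 (29.8, 25.5 to 35.1), Eif5a and Eif1 (11.7, 10.1 to 13.7, adjusted p of 1). For protein folding and ubiquitin, 3 of 57 genes had a peak, Otub1 (21.9, 18.1 to 26.9), Dnajc7 (23.9, 18.6 to 31.3) and Stip1 (20.8, 16.1 to 27.3). Transcription and chromatin genes had 4 of 55, Ptma, Npm1 (21.3, 16.7 to 27.5), a nucleolar chaperone, Olig1 (11.8, 8.62 to 16.7) and Nfix (10.1, 8.57 to 12, adjusted p of 1). Energy metabolism had 3 of 58, among them Got2 (14.7, adjusted p of 1) and Ndufs8 (7.47). Ion pumps, channels and transporters had 2 of 43, Atp1b2 and Atp6v0e2. Of 45 genes of the miRNA pathway, deadenylation and decay, among them Mov10, Ago2 and Fmr1, 0 had a 3' UTR peak and 0 a CDS peak. Over all protein-coding genes only 0.838% had a 3' UTR peak, and CDS peaks were also rare. A count of 0 among 45 genes therefore does not set this list apart.

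Markers of the cell types of brain were read beside the same 0.838% of all genes for 3' UTR peaks. For CDS peaks the counts over all genes were 51 genes with a 3' UTR peak as well and 196 without. Neuronal markers had a 3' UTR peak in 2 of 12 genes, Snap25 and Syt1, and a CDS peak in 5. Astrocyte and radial glial markers had a 3' UTR peak in 0 of 10 and a CDS peak in 3. The oligodendrocyte lineage was represented by Olig1 (1 of 7), with no CDS peak in the list. Microglia (0 of 6) and blood (0 of 5) had no peak in a 3' UTR or CDS. Markers of endothelium, pericytes and meninges had a 3' UTR peak in 3 of 8 genes, Igf2, Col1a2 and Cldn5, the tight junction protein of vessels (456 IP and 15 input reads, ratio 25.3, interval 15.2 to 45.7). None of the 8 had a CDS peak. The 5 peaks in 3' UTRs had a median ratio of 53.1, and they are in part the same peaks as those of the secreted genes. The share of RNA from vessels and meninges in the IP and in the input was not tested.

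The exonic part of the 3' UTR peaks, 55591 bases, was richer in C and poorer in T than the rest of the same 3' UTRs. It held 25% A, 26.6% C, 22.2% G and 26.2% T, against 26.0%, 23.1%, 22.2% and 28.7% in the rest. GC content was 48.8% in the peaks, 45.3% in the rest, 43.0% over the longest 3' UTRs of all genes and 54.4% in CDS peaks. The exonic part includes coding bases in 53 peaks. Peak by peak, 176 left at least 200 bases of 3' UTR to compare with, and GC was higher in the peak in 113 and lower in 62. The median difference was 2.07 percentage points (interval 0.948 to 2.80, quartiles -2.06 and 6.86). The median ratio was 18.8 in the 50 peaks lowest in GC (30.5% to 43.5%), and 15.3, 15.6 and 14.2 in sets of 53, 47 and 50 peaks of rising GC.

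Shares of peaks with each of 19 short motifs were set beside those of windows of the same length in the 3' UTRs of all genes. Tiling at 200 bases gave 145135 such windows, and shares were averaged over the lengths of the peaks. The motifs searched on the mRNA strand were both poly(A) hexamers (AATAAA and its variant ATTAAA), the pentamer of AU-rich decay elements (ATTTA), the Pumilio element, and the cytoplasmic polyadenylation element (TTTTAT). The others were a core of the m6A consensus (GGACT), a run of T (TTTTTT), the G-quadruplex pattern, and the 11 seed matches. Matches may overlap, since the cytoplasmic polyadenylation element can share bases with the AU-rich pentamer and the run of T. Each was also counted on the opposite strand as a background. For 17 of the 19 motifs the share in all 3' UTRs lay within the interval of the share in peaks. A match is a description of the sequence and not a site shown to be used.

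AATAAA or ATTAAA was present in 58 peaks (29.0%, interval 22.8 to 35.8), against 26.5% of windows, 25% of the rest of the same 3' UTRs and 24.0% on the opposite strand. In 18 genes such a hexamer ended within 40 bases of the transcript end. This count leaves out chromosome 18 and hexamers whose context of 30 bases crossed a splice junction, so it is a minimum. ATTTA was present in 64 peaks (32.0%, against 34.0% of windows), GGACT in 48 (24.0%, against 21.5%) and the Pumilio element in 10 (5.0%, against 5.30%). The exceptions were TTTTTT, in 26 peaks (13%, interval 8.67 to 18.5, against 21.2%), and TTTTAT, in 25 (12.5%, 8.26 to 17.9, against 20.8%). On the opposite strand of the peaks they were found in 31 (15.5%) and 32 (16%), within these intervals. Both were less frequent in the peaks than in all 3' UTRs, as was T as a base. Matches were counted over the whole exonic part, which includes coding bases in 53 peaks, while the windows hold 3' UTR only. In CDS peaks TTTTTT and TTTTAT were present in 3.40% and 1.54%. The G-quadruplex pattern was found in 8 peaks (4.0%, interval 1.74 to 7.73) on the mRNA strand and in 15 (7.5%) on the opposite strand. It was present in 2.07% of windows and in 3.61% of the rest of the same 3' UTRs, both within the interval.

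**Figure D5:**
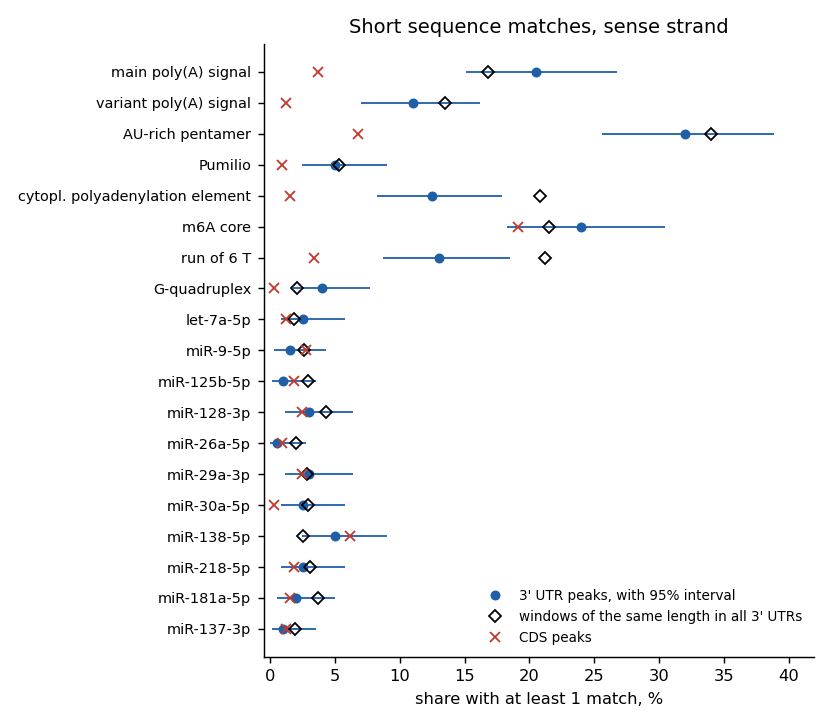
Share of 3' UTR peaks with at least 1 match to each motif (filled circles, with Clopper-Pearson 95% intervals, n = 200), beside windows of the same length in all 3' UTRs (diamonds) and CDS peaks (crosses), on the mRNA strand. Only for the cytoplasmic polyadenylation element and the run of T does the diamond lie outside the interval, above it.

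The seed matches were rare. That of miR-138-5p was found in 10 peaks (5.0%, interval 2.42 to 9.0), against 2.54% of windows, 3.35% of the rest of the same 3' UTRs and 6.17% of CDS peaks. The matches of miR-128-3p and miR-29a-3p were each found in 6 peaks (3.0%), against 4.30% and 2.85% of windows. Those of let-7a-5p, miR-30a-5p and miR-218-5p were each in 5 peaks (2.50%), against 1.86%, 2.91% and 3.05%. That of miR-181a-5p was in 4 (2.0%, against 3.69%), of miR-9-5p in 3 (1.50%, against 2.64%), of miR-125b-5p and miR-137-3p in 2 each (1.0%, against 2.93% and 1.94%), and of miR-26a-5p in 1 (0.50%, against 1.99%). On the opposite strand the counts ran from 0 for miR-137-3p to 11 for miR-29a-3p.

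The ratios of the peaks that held the sites printed above spanned much of the range. The let-7a-5p matches lay in peaks with ratios of 34.5 (26.5 to 45.8) at Dcakd, 38.1 (28.2 to 52.8) at Cacng4 and 14.6 at Col1a2. The miR-138-5p matches lay in peaks of 33.9 (27.7 to 42) at Clvs1 and 88.3 at Igf2. The Pumilio elements lay in peaks of 17.6 at Ptma, 32.7 at Rab11b and 35.2 (30.1 to 41.4) at Rrp1. The median ratio was 18.2 over the 5 peaks with a let-7a-5p match, 15 over the 10 with a miR-138-5p match, 16.9 over the 10 with a Pumilio element and 23.5 over the 8 with a G-quadruplex pattern, against 15.6 over all.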

How the data were processed

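The study sequenced RNA from the Mov10 IP and the input of brains of 28 pups. Per the submitters' notes and methods, bcl2fastq 2.17.1.14 gave the base calls. The authors then aligned reads to mm10 in TopHat2 2.1.1, called peaks on each strand with RIPSeeker and assigned reads with several alignments to single places. The deposited table gives, per peak, read counts of both libraries that are not scaled, an adjusted p-value and an eFDR, used here as the authors made them. By the paper's totals 71522027 of 98884367 IP reads and 59620379 of 67566885 input reads aligned, 57005129 and 29124706 of them uniquely. No column of other samples was left aside.

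From these counts, ratios to aligned reads were computed with exact conditional binomial 95% intervals. A floor of 3 reads stood in for an input of 0, and shares have Clopper-Pearson intervals. With 1 library per group no test between conditions was possible, and none was run between peak classes. Positions, sequences and gene names came from GENCODE M21 and its transcripts, miRNAs from RefSeq. Copies were sought among transcripts with blastn 2.17.0, since no genome was used here, so the search over the genome that had been planned covers transcripts only. Python 3.11.15, numpy 2.4.6, pandas 2.3.3, scipy 1.17.1 and matplotlib 3.10.9 were used. The interval and the placement were tested on simulated data.

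The 3' UTR peaks, gene lists, motifs and tests were chosen with earlier results of these data known. Named peaks follow a rule. From peaks at or above 100 reads in the IP and 10 in the input, with adjusted p up to 0.05, it takes the 15 highest ratios, the 15 with the most IP reads and the 8 lowest ratios. It adds peaks with no input read, genes with 3 or more peaks, the 6 highest and 6 lowest ratios of ratios, the 4 longest peaks, up to 4 genes of each list, the 3 peaks with the most IP reads for each motif, and the 5 nearest to either end. Other peaks, such as those of Ccdc124, App and further genes of a list or with several peaks, were named after their values were seen. The alternatives tried were other library totals, pseudocounts, thresholds, transcripts and subsets of peaks.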

Additional observations from a re-analysis of the deposited data

How the results depend on the processing

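Of 53 recomputed values over 9 results, 45 stayed within the 95% interval of the value given in the report and 8 did not. The median ratio of 15.6 became 9.57 with uniquely aligned reads and 12.4 over the 74 peaks with an eFDR of at most 0.05. The share of peaks called, 90% at an adjusted p of 0.05, was 37.0% at an eFDR of 0.05, beside 90.8% and 37.7% of all chromosome peaks. The share of peaks at a ratio of 10, 75.5%, was 48.0% with uniquely aligned reads, 95.5% at a ratio of 5 and 39.0% at a ratio of 20. The median distance to the transcript end, 625 bases, was 468 with the shortest 3' UTR, and the share with a poly(A) signal, 29.0%, was 20.5% for AATAAA alone. The difference between 3' UTR and CDS peaks ran from 0.04 to 0.19 on the log2 scale over all 9 alternatives. Its interval treats peaks as independent, so it is no test of direction. The median ratio of ratios within genes, -0.07, was 0.05 with the top peak of each class and 0.03 without copies, inside its interval. No paired analysis was possible because each group is 1 library and no result comes from a test over samples. Depth limits peaks with few input reads most, such as the first of Cxcl12, and the lack of replicates leaves biological variation unknown for all.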
